A study of Mus musculus with 4 samples.

Results

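The 10 spliced long noncoding RNAs Gas5, Snhg1, Snhg3, Snhg5, Snhg6, Snhg8, Snhg12, Snhg15, Snhg20 and Zfas1, which carry small nucleolar RNAs (snoRNAs) in their introns, were examined in reconstituted ovaries (rOvaries) from mice treated with INK128 or left without it. They were taken by gene symbol from a count table of 54021 symbols, and all 10 were found in it. Each rOvary had grown under the kidney capsule of a bilaterally ovariectomized G2 Terc-/- female on the C57BL/6 background, which lacks the telomerase RNA and was on average 10 weeks old at transplantation. The donor aggregates held primordial germ cells and gonadal somatic cells of fetal C57BL/6 gonads carrying actin-GFP, so the RNA could come from donor cells, from host cells that had grown in and from adjoining kidney. The INK128 group (2 libraries, replicates 1 and 2) received this inhibitor of the kinase mTOR in the drinking water. The labels give 0.75 µM per g of body weight, whereas the methods give a drinking water concentration and an approximate daily dose. These statements of the dose were not reconciled here. The Control group (2 libraries, replicates 1 and 3) was not given INK128. All rOvaries were collected 4 weeks after transplantation. The polyA RNA libraries show what share of the counted reads each host RNA took.

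A snoRNA host gene is transcribed and spliced like a messenger RNA, and its snoRNAs are trimmed out of the excised introns. Box C/D snoRNAs guide methylation and box H/ACA snoRNAs guide pseudouridylation, mostly of ribosomal RNA. The spliced exons of several hosts begin with a run of pyrimidines, the 5′ terminal oligopyrimidine (TOP) tract that ribosomal protein mRNAs also carry and through which mTOR controls translation. Host RNAs of this class hold only short open reading frames, and Gas5 is known to accumulate when growth stops or translation is blocked, since nonsense-mediated decay (NMD), which needs translation, then degrades less of it.

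The 4 libraries held between 19130209 and 23029089 counts. A floor of 3 counts corresponded to between 0.127 and 0.161 CPM (counts per library scaled with TMM factors), so every member lay above it in every library. The Control libraries stood apart from each other more than the INK128 libraries did, with a Pearson correlation of log2 CPM across 11758 genes of 0.806 between the Control and 0.98 between the INK128 libraries. Control replicate 3 had 24.5 CPM over 9 oocyte markers, against 797 in Control replicate 1, 1078.8 in INK128 replicate 1 and 794 in INK128 replicate 2. Control replicate 1 had 1021 counts over 4 Y-linked genes, against 0 to 2 in the other libraries, and 1255.7 CPM over 6 Sertoli cell markers, against 145 to 240. Summed granulosa cell markers (7 genes) ranged from 2710.6 to 7561 CPM and summed theca and steroidogenic markers (5 genes) from 729 to 10583.4 CPM, and for both lists the groups overlapped. Summed kidney markers were 119 and 276 CPM in the INK128 libraries and 1008.4 and 2468.9 CPM in the Control libraries, with 18 of 20 genes lower in both INK128 libraries. Immune cell markers were at 467 and 432 CPM with INK128 and at 897 and 1287.6 CPM without it (11 of 15 genes lower). Over all 11758 genes with a mean CPM above 10, 34.0% were lower and 34.5% higher in both INK128 libraries. No marker of any list was at 0 in all libraries. The kidney and immune sums separated the groups, the granulosa, theca, oocyte and Sertoli sums overlapped (although 7 of 9 oocyte markers were higher in both INK128 libraries), and the part of these levels in the results on the host RNAs was not tested. In whole rOvaries, fewer cells of a type and less RNA per cell cannot be told apart.

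To show which hosts begin with a pyrimidine tract, the bases around their annotated starts were read from RefSeq promoters (build GRCm38.p6), which held 10 start sites for 9 members and none for Snhg6. A run was defined as a C followed by further pyrimidines (C or T), on the sense strand only. In 4 members the annotated start lay within a run of at least 4 bases, and these are printed with 30 bases on each side of the start, the run in capitals, followed by Zfas1 and Snhg20, whose starts lay in none. In these last sequences the capitals mark the longest run within 20 bases of the start.
Gas5 (chr1:161035136-161035195, plus strand): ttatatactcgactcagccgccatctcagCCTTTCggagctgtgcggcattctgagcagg
Snhg1 (chr19:8723457-8723516, plus strand): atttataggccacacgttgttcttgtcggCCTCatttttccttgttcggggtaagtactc
Snhg8 (chr3:123508307-123508366, minus strand): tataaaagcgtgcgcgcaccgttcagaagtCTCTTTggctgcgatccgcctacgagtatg
Snhg12 (chr4:132308648-132308707, plus strand): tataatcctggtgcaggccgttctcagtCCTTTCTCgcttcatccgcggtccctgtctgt
Zfas1 (chr2:167062904-167062963, plus strand): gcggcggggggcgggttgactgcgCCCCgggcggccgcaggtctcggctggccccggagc
Snhg20 (chr11:117076753-117076812, plus strand): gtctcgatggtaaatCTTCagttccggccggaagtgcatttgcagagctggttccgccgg
The start lay in such a run in 40% of the members' 10 promoters, in 30.4% of 69 promoters of cytosolic ribosomal protein genes and in 11% of all 32851 promoters. A run of at least 5 bases that began exactly at the start was present in 2 members, Snhg8 and Gas5 at the start shown, where it is the printed run without its first C, or 20% of their promoters, against 20.3% for ribosomal protein genes and 2.5% for all. Anywhere within 20 bases of the start, such a run was found in 5 members (50% of promoters), a share close to the 49.4% of all promoters and below the 75.4% of ribosomal protein genes. These matches describe the letters only, and the start bases used in rOvaries were not measured.

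Gas5, the most abundant of the 10, reached 155 CPM in INK128 replicate 1 and 256 CPM in INK128 replicate 2, while the Control libraries held 54.1 CPM (replicate 1) and 61.3 CPM (replicate 3). Both INK128 libraries thus lay above both Control libraries, with the INK128 libraries further from each other than the Control libraries. The INK128 mean was 205 ± 71.3 CPM (SD, n = 2). The Control mean was 57.7 ± 5.1 CPM (SD, n = 2). Gas5 was 3.56-fold higher with INK128, a log2 fold change of 1.83 ± 0.30 (SE), and passed the test (edgeR quasi-likelihood test, Benjamini-Hochberg adjusted p = 0.0463).

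Snhg8, host of the H/ACA snoRNA Snora24, stood at 38.6 and 45.8 CPM in the INK128 libraries (replicates 1 and 2) and at 13.9 and 12.1 CPM in the Control libraries (replicates 1 and 3). The gap between the groups was far wider than the gap within either, and the log2 fold change was 1.70 ± 0.22 (3.25-fold, edgeR adjusted p = 0.0455). Snhg1, host of a series of C/D snoRNAs, was at 36.2 and 54.9 CPM with INK128 and at 13.9 and 16.2 CPM without it. Its log2 fold change was 1.59 ± 0.29 (3.02-fold, edgeR adjusted p = 0.0492), just inside the threshold of 0.05. Snhg6, host of Snord87, had nearly equal replicates, with 40.2 and 38.9 CPM against 17.1 and 18.1 CPM. It showed the lowest fold change of the 10 at 2.24-fold (log2 1.17 ± 0.19) and passed all the same (edgeR adjusted p = 0.0474). Without INK128 replicate 2 it was at 1.18 and Snhg5 was lowest, at 1.05. Gas5, Snhg1, Snhg6 and Snhg8 were the 4 host RNAs called higher among the 8 with a mean CPM above 10, where 3.69% of all 11758 genes tested were called higher, and none was called lower.

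The other 4 host RNAs with a mean CPM above 10 missed the threshold, although their groups did not overlap. Zfas1, which hosts members of the Snord12 family, was at 76.9 and 58.8 CPM with INK128 and at 10.5 and 27.9 CPM in the Control libraries. The Control libraries differed most here, by 1.37 on the log2 scale, and the log2 fold change of 1.82 ± 0.51 (3.53-fold) had an edgeR adjusted p of 0.0815. Without Control replicate 1 it was 1.28 and without Control replicate 3 it was 2.69. Snhg12, host of Snord99 and of H/ACA snoRNAs, measured 18.3 and 32.9 CPM against 6.95 and 8.05 CPM, a log2 fold change of 1.77 ± 0.38 (edgeR adjusted p = 0.0554). Snhg3, host of the Snora73 pair, had 15.6 and 20.3 CPM with INK128 and 4.16 and 7.04 CPM without, at a log2 fold change of 1.68 ± 0.39 (edgeR adjusted p = 0.0613). For Snhg5, host of the Snord50 pair, the INK128 libraries held 20.3 and 28.1 CPM and the Control libraries 8.68 and 10.8 CPM (log2 fold change 1.31 ± 0.30, edgeR adjusted p = 0.0594). The Control means of Snhg3, Snhg5 and Snhg12 were 5.6, 9.76 and 7.5 CPM, so these genes reached the mean of 10 CPM through their INK128 libraries.

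Snhg15 and Snhg20 had a mean CPM of 10 or less, and their tests come from the fit of 17631 genes with means above 1. Snhg20, host of a small Cajal body RNA (Gm26083), was at 9.45 and 21.7 CPM with INK128 and at 2.48 and 3.16 CPM in the Control libraries. This was the highest fold change of the 10, 5.72-fold (log2 2.52 ± 0.53), but also the pair of INK128 libraries that differed most, by 1.16 on the log2 scale, and the edgeR adjusted p was 0.0597. Without INK128 replicate 2 its log2 fold change was 1.78, below the 2.0 of Zfas1 in that fit, and without INK128 replicate 1 it was 2.98. Snhg15, host of Snora9, measured 6.49 and 8.83 CPM against 3.1 and 2.61 CPM, a log2 fold change of 1.48 ± 0.39 (edgeR adjusted p = 0.0806).

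**Figure D1:**
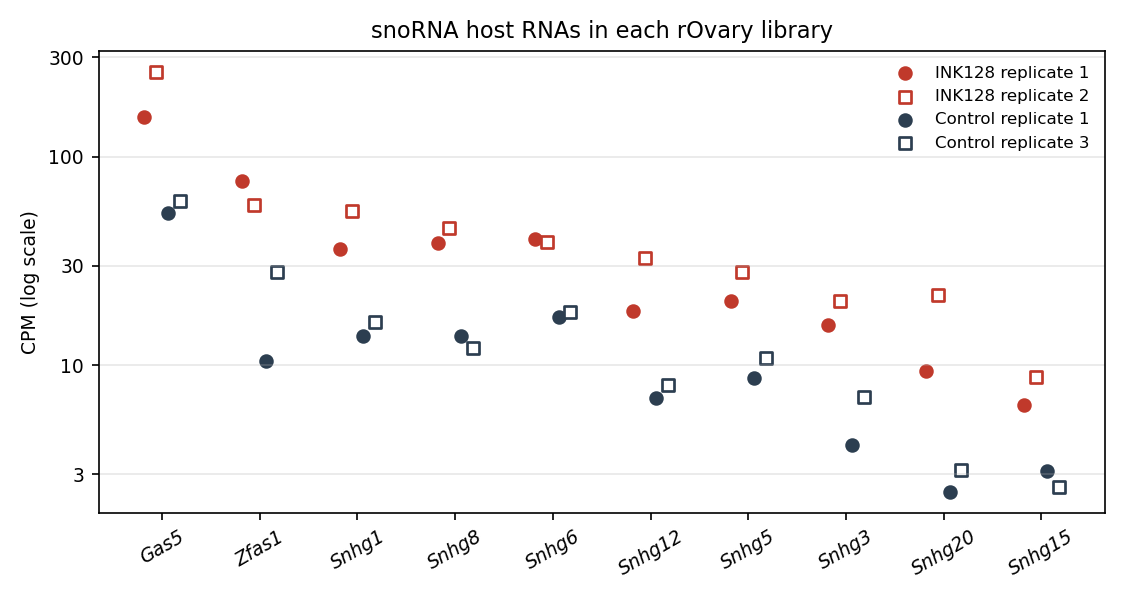
CPM of each of the 10 host RNAs (horizontal axis, ordered by INK128 mean) on a log scale (vertical axis) in the 4 libraries, with 1 point per library. For each gene both red points (INK128) lie above both dark points (Control), with the narrowest spread within groups for Snhg6 and a wide gap between the Control points of Zfas1.

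For all 10 host RNAs both INK128 libraries lay above both Control libraries, an order found for 30.9% of the 17631 genes with a mean CPM above 1. At means above 10 CPM it held for 34.5% of 11758 genes. Gas5, Snhg1, Snhg6, Snhg8 and Zfas1 exceeded 10 CPM in the mean of both groups, while the order of Snhg3, Snhg5 and Snhg12 in that set was partly fixed by their entry through the INK128 libraries. With 2 libraries per group an exact permutation test of a single gene cannot give a p below 0.333, so each p rests on the spread shared across genes. The labels do not say whether the libraries came from separate animals, so p-values measure only the spread between these libraries.

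The number of host RNAs called depended on the tool and on which genes were tested with them. DESeq2 called 8 of 8 higher in the set above 10 CPM, where it called 13.6% of all genes higher, and 10 of 10 in the set above 1 CPM, where it called 10.2% higher. DESeq2 adjusted p ranged from 3.55e-07 for Snhg8 to 0.0327 for Snhg15. In the edgeR fit of the 17631 genes no gene at all was called in either direction, and the host RNAs had adjusted p between 0.0519 and 0.0812. There, all 10 passed an adjusted p of 0.1 with a fold change over 1.5, as did 10.4% of genes in the higher direction, and all 10 passed an unadjusted p of 0.05, as did 14.4% of genes. Limma voom on the same genes called 0. Leaving out either INK128 library left 0 of the 10 called by edgeR, and 0 genes in all. Leaving out either Control library gave 10, but then far more of all genes were called higher as well. Without Control replicate 1 these were 22.9% of the genes above 10 CPM and 22.1% of those above 1 CPM, and without Control replicate 3 they were 21.3% and 19.8%. The median log2 fold change of the 10 was 1.69, with values from 1.17 to 2.52, beside a median of -0.03 over the 11758 genes.

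Read together, the 10 host RNAs took 0.0406% and 0.0534% of the counts in the INK128 libraries and 0.0141% and 0.0174% in the Control libraries (replicates 1 and 3). Gas5 made up 37.2% and 45.2% of that sum with INK128 and 40.1% and 36.6% without it, so its share of the hosts overlapped between the groups. Within the INK128 group, 8 of the 10 were higher in replicate 2 than in replicate 1, with a median gap of 0.44 on the log2 scale where all genes had a median gap of 0.17. The exceptions were Zfas1 and Snhg6. In the Control group the host RNAs had the narrower gap, with a median of 0.21 against 0.36 for all genes, and 8 of the 10 were higher in replicate 3.

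Levels between genes were compared as FPKM, computed here from CPM and the median length of each gene's annotated transcripts. With INK128, Gas5 was highest at 327 ± 113 FPKM (SD, n = 2), and its lowest library exceeded every library of the next gene. Zfas1 (92.8 ± 17.5), Snhg8 (79.9 ± 9.54), Snhg1 (75.6 ± 21.9) and Snhg6 (70.7 ± 1.62) followed, and each overlapped its neighbour in that order. Snhg3 (41.1 ± 7.55) stood apart below them. Snhg5 (29.1 ± 6.6), Snhg12 (27.9 ± 11.3) and Snhg20 (25.9 ± 14.4) overlapped in turn, and Snhg15 was lowest at 12.8 ± 2.77 FPKM. In the Control libraries Gas5 was again highest at 91.7 ± 8.11 FPKM and separate from the rest. Snhg6 (31.5 ± 1.21), Zfas1 (26.2 ± 16.8), Snhg1 (25 ± 2.69) and Snhg8 (24.6 ± 2.35) formed the next set, each overlapping its neighbour, and Snhg15 (4.79 ± 0.574) and Snhg20 (4.7 ± 0.805) overlapped at the bottom. Snhg6 was thus first of its set in the Control group and last of it in the INK128 group. In FPKM, its libraries lay above those of Snhg8 in the Control group (30.6 to 32.4 against 22.9 to 26.2). With INK128 they lay below those of Snhg8 (69.5 to 71.8 against 73.2 to 86.7). Snhg6 overlapped Zfas1 in the Control group and Snhg1 in the INK128 group. The order depended on the length used. On the joined length of all annotated exons, Gas5 (15.3), Snhg6 (15.4) and Snhg8 (15.2) had like Control means in FPKM, and with INK128 Gas5 (54.6) was followed by Snhg8 (49.5), Snhg6 (34.5) and Zfas1 (23.2).

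Ribosomal protein genes, which share the pyrimidine start with some of these hosts, moved in the same direction. All 80 tested had both INK128 libraries above both Control libraries (34.5% of all genes), 69 were called higher (3.69% of all genes) and 0 lower by edgeR, and their median log2 fold change was 1.48. With offsets for transcript length and for joined exon length the median was 1.20 and 0.93, and in these fits edgeR called none of the 80 and 0 of all genes. They took 9.54% and 9.77% of the INK128 counts and 3.97% and 3.71% of the Control counts. Counted against them, the host RNAs gave 4.26 and 5.47 counts per 1000 ribosomal protein counts with INK128 and 3.55 and 4.69 in Control replicates 1 and 3. On that scale the groups overlapped, since Control replicate 3 lay above INK128 replicate 1.

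**Figure D2:**
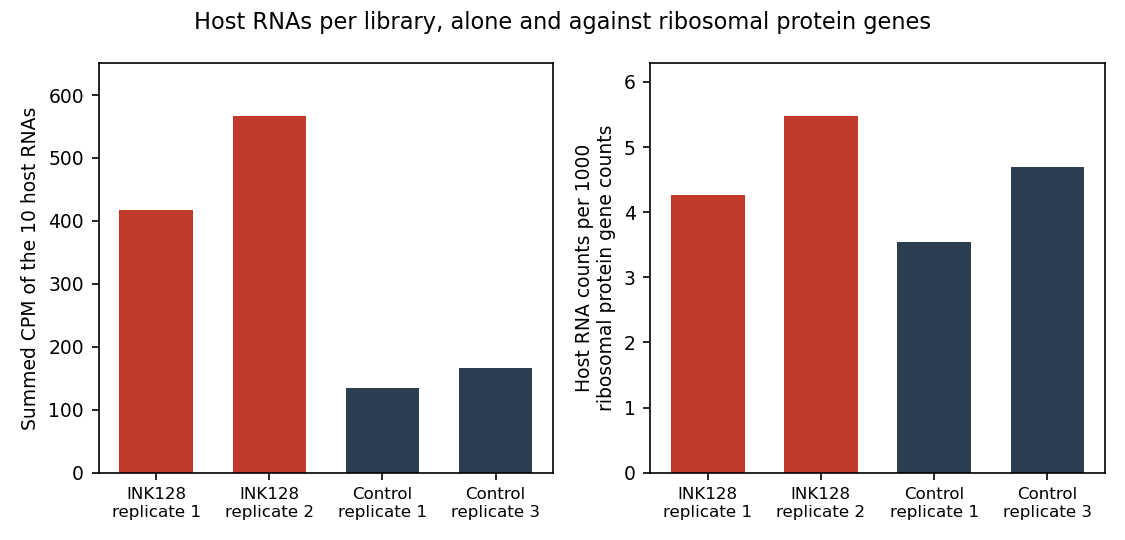
Left, summed CPM of the 10 host RNAs in each of the 4 libraries. Right, their summed counts per 1000 counts of the 80 cytosolic ribosomal protein genes. The INK128 bars (417 and 566 CPM) stand above the Control bars (135 and 167 CPM) on the left, while on the right the groups overlap (4.26 and 5.47 against 3.55 and 4.69).

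Transcript length moved with the comparison over all genes, and the host RNAs are short. Their median transcript lengths ranged from 437 bases (Snhg3) to 915.5 bases (Snhg12), against a median of 1360 bases over the tested genes. Genes of over 500 and up to 1000 bases had a median log2 fold change of 0.20 (4144 genes), and those over 4000 bases of -0.53. The 7 tested host RNAs in the first of these classes had a median of 1.70. Classed by joined exon length, genes of over 500 and up to 1000 bases had a median of 0.71 (Snhg3 and Snhg8 1.69). Those over 1000 and up to 2000 bases had 0.63 (Snhg5 and Snhg6 1.24). Those over 2000 and up to 4000 bases had 0.25 (Gas5, Snhg1, Snhg12 and Zfas1 1.79). In these classes 60.5%, 68.0% and 47.4% of genes had both INK128 libraries above both Control libraries. EdgeR called 16.4%, 12.6% and 4.18% of them higher. With an offset in the fit that removed the trend over transcript length, an alternative chosen after seeing the data, the log2 fold changes of all 10 remained positive, at 0.83 (Snhg6) to 2.25 (Snhg20) with a median of 1.31. With an offset for the joined length of all annotated exons they ran from 0.43 (Snhg6) to 2.26 (Snhg20) with a median of 1.17. No host RNA was called under either offset, in fits that called 0 of all genes. Gas5 had 1.58 (edgeR adjusted p = 0.0589) with the transcript length offset and 1.72 (edgeR adjusted p = 0.0813) with the exon length offset. Snhg3, Snhg8, Snhg6 and Snhg5 moved most with the exon length offset, from 1.68 to 0.91, from 1.70 to 0.93, from 1.17 to 0.43 and from 1.31 to 0.70.

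**Figure D3:**
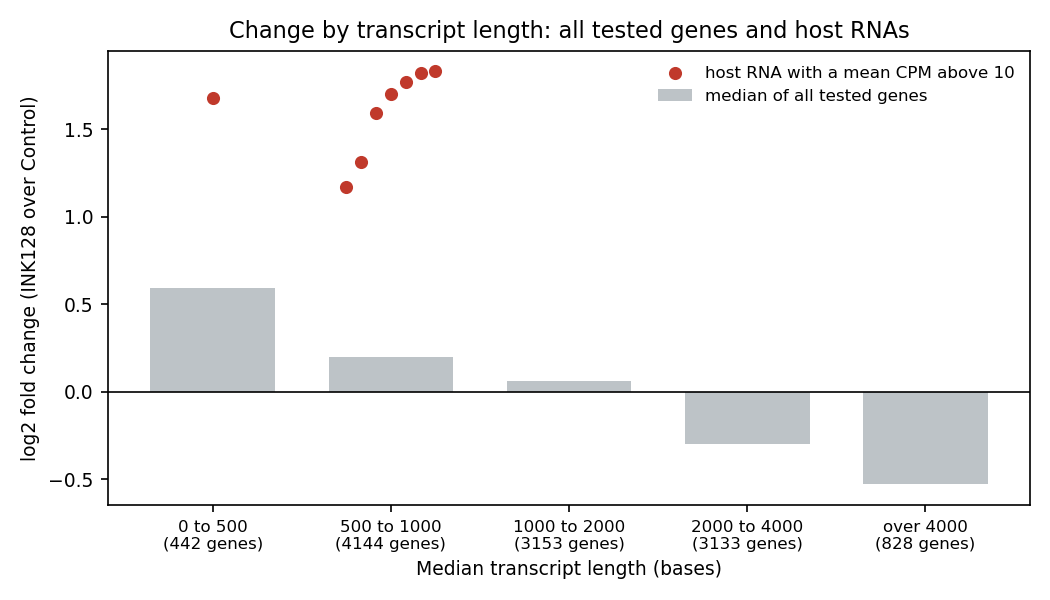
Log2 fold change (INK128 over Control) by class of median transcript length in bases. Grey bars are medians over the tested genes of a class and red points are the 8 host RNAs with a mean CPM above 10. The medians decline from 0.59 in the shortest class to -0.53 in the longest, and all 8 points lie above the bar of their class.

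**Figure D4:**
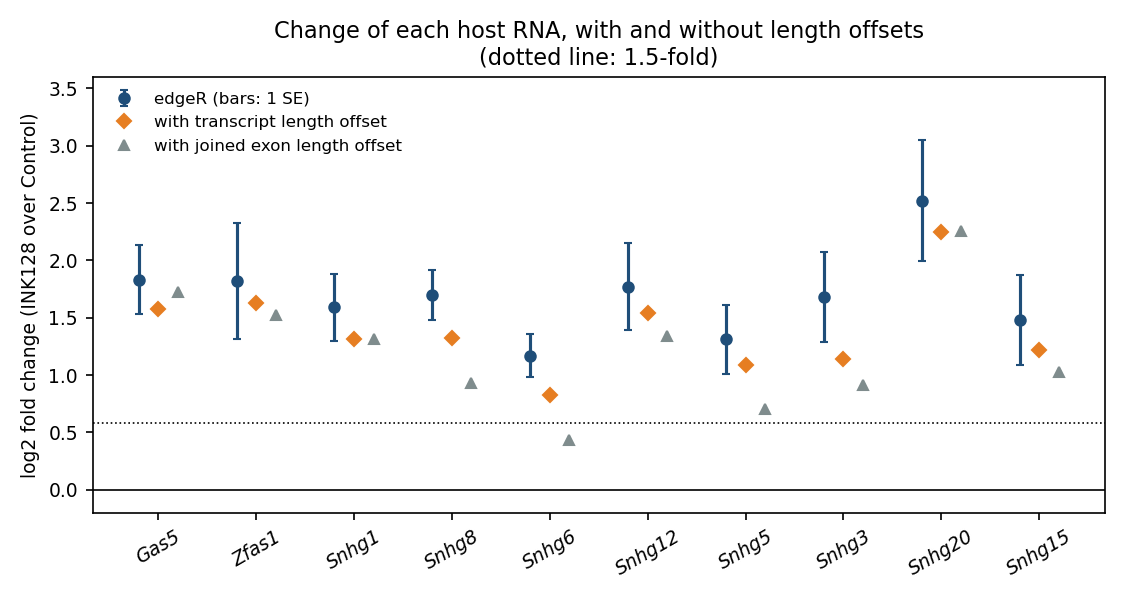
Log2 fold change of each host RNA in the edgeR fit (circles, bars 1 SE), with the transcript length offset (diamonds) and with the joined exon length offset (triangles). All values are above 0, from 0.43 for Snhg6 with the exon length offset to 2.52 for Snhg20 without an offset, and only that lowest value lies below the dotted line at 1.5-fold.

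Several host genes share sequence or a start region with a neighbour, and the library kit did not mark strand. Snhg3 (chr4:132348014-132353686, minus strand, mm10) shares 705 exon bases with Gm17300, a long noncoding RNA on the opposite strand. Their counts were 291 and 297, 441 and 447, 94 and 96, and 167 and 168 in the 4 libraries. The counts of the pair thus differed by at most 6, and how reads in shared bases were assigned is not given in the sources used here, so the Snhg3 values cannot be told apart from those of Gm17300. Snhg3 also shares 135 exon bases with Rcc1, a regulator of the GTPase Ran, which was at 51.0 and 54.9 CPM with INK128 and at 30 and 30.4 CPM without it (log2 fold change 0.81, edgeR adjusted p = 0.057). Snhg6 shares 127 exon bases with the opposite-strand gene Mcmdc2, which had 4.62 and 4.32 CPM against 1.46 and 2.4 CPM and so far fewer counts than Snhg6.

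Zfas1 (chr2:167062934-167065862, plus strand, mm10) begins 81 bases from the start of Znfx1 on the other strand and shares 82 exon bases with it. Znfx1, a zinc finger gene, went the other way, at 55.8 and 52.7 CPM with INK128 and at 164 and 100 CPM in the Control libraries (log2 fold change -1.29 ± 0.29, edgeR adjusted p = 0.0579). Gas5 (chr1:161034422-161038539, plus strand, mm10) overlaps the start region of Zbtb37 without sharing exon bases, and Zbtb37 measured 17.8 and 14.1 CPM against 21 and 38.7 CPM (log2 fold change -0.91, edgeR adjusted p = 0.153). Snhg1 (chr19:8723475-8726443, plus strand, mm10) starts 106 bases from Slc3a2, the heavy chain of amino acid transporters, which had 248 and 277 CPM with INK128 and 254 and 202 CPM without. The Slc3a2 groups overlapped (log2 fold change 0.20, edgeR adjusted p = 0.48). Of the 3 genes with a start on the opposite strand within 1000 bases of a host start edgeR called none, and DESeq2 called Znfx1 lower (DESeq2 adjusted p = 0.0012).

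The annotation (GENCODE M21) places 32 snoRNA genes inside the 10 hosts, 9 of them in Gas5 and 8 in Snhg1. One from each of 6 hosts is shown, to give the guide RNAs the hosts carry, with the C box (TGATGA) and D box (CTGA) of C/D snoRNAs or the ACA close to the 3′ end of H/ACA snoRNAs in capitals, all on mm10.
Snord47 in Gas5 (chr1:161038082-161038158, plus strand): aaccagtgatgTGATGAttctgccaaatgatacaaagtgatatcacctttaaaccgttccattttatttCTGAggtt
Snord12 in Zfas1 (chr2:167065276-167065365, plus strand): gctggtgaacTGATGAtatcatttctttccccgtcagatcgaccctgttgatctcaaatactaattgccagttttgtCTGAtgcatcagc
Snord50a in Snhg5 (chr9:88521529-88521600, minus strand): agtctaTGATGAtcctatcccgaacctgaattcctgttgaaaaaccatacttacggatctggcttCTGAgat
Snord87 in Snhg6 (chr1:9942463-9942549, minus strand): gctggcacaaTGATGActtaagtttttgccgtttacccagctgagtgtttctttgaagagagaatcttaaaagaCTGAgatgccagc
Snora24 in Snhg8 (chr3:123507937-123508066, minus strand): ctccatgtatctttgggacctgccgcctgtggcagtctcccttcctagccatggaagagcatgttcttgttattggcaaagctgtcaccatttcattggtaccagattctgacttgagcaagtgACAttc
Snora61 in Snhg12 (chr4:132310240-132310369, plus strand): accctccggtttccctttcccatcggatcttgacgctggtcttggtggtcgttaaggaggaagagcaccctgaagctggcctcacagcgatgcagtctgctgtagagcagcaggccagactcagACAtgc
Mature snoRNAs lack a polyA tail, so libraries of polyA RNA are not made to measure them. Of the 32 snoRNA genes, 29 lie wholly inside an annotated exon of their host, so reads there cannot be told apart from reads of a host RNA that still holds the snoRNA.

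Reads at the 32 snoRNA genes summed to 782 and 1386 counts in the INK128 libraries and to 454 and 384 in the Control libraries, or 42.0 and 63.8 CPM against 20.1 and 16.2 CPM. Both INK128 libraries lay above both Control libraries in CPM for 23 of the 32, 8 overlapped, and 1, Gm25894 in Snhg1, lay below. Over all 25062 genes with more than 3 counts in a library, 27.9% had both INK128 libraries above. Snord50b is among the 23 only through the scaling, with 6 counts in every library. Snord47 had 51 and 95 counts with INK128 and 14 and 26 in Control replicates 1 and 3, and Snord12 had 52 and 65 against 18 and 19. At Snord78, a further C/D snoRNA of Gas5, the counts were 100 and 212 against 47 and 55. The 15 snoRNA genes with a mean CPM above 1 were tested in the edgeR fit that called 0 of all genes, and the lowest edgeR adjusted p was 0.0696 (Gm25789 in Gas5, log2 fold change 2.58). Of these 15, 12 had a Control mean below 1 CPM and so were tested through their INK128 libraries, Gm25789 among them, and no count of calls is read from them. Snord78, with 5.37 and 9.75 CPM against 2.08 and 2.32 CPM, exceeded 1 CPM in every library. It was called higher by DESeq2 but not by edgeR (log2 fold change 1.84, edgeR adjusted p = 0.0776). Gm22357 and Gm23212 in Gas5 also exceeded 1 CPM in every library, and neither tool called them. Their log2 fold changes were 1.46 and 1.14 (edgeR adjusted p = 0.135 and 0.216). Relative to the counts of the hosts, which may include the same reads, the snoRNA reads made up 10.1% and 11.3% with INK128. Without it they made up 14.9% and 9.68%, so the groups overlapped.

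Of 14 other noncoding snoRNA hosts listed, 9 reached a mean CPM of 1, and they did not move as one. Epb41l4aos, which holds 1 annotated snoRNA, was at 28.9 and 45.2 CPM with INK128 and at 7.26 and 8.64 CPM without it, and was the only one edgeR called (log2 fold change 2.22 ± 0.32, edgeR adjusted p = 0.0455). Its Control mean of 7.95 CPM lay below 10, so it was tested through its INK128 libraries, and over the genes above 1 CPM its edgeR adjusted p was 0.0519. Snhg14, the long host transcript of the imprinted Snord115 and Snord116 region, went the opposite way, with 13.7 and 12.9 CPM against 26.2 and 31.4 CPM (log2 fold change -1.11, edgeR adjusted p = 0.0534, DESeq2 adjusted p = 0.00276). Positive values that missed the threshold were 1.34 for the imprinted Meg3 (edgeR adjusted p = 0.142), 1.13 for Snhg18 (0.0502), 0.88 for Snhg17 (0.102) and 0.62 for the imprinted Rian (0.12), all as log2 fold changes. Below 10 CPM, Dancr had 2.14 (0.0767), Snhg10 1.23 (0.31) and Snhg11 0.38 (0.674). DESeq2 adjusted p was 0.00047 for Snhg18 and 0.0229 for Dancr. Among the 6 above 10 CPM, the median was 1.01, edgeR called 1 higher and 0 lower (3.69% and 3.72% of all genes), and DESeq2 called 2 higher and 1 lower (13.6% and 15.1%). Snhg17, with a Control mean of 9.14 CPM, also entered through its INK128 libraries. With the exon length offset Snhg14 was at -0.24, Epb41l4aos at 1.43, Snhg18 at 0.47, Meg3 at 2.07 and Rian at 1.34. With the transcript length offset the same genes were at -1.30, 1.56, 1.08, 1.13 and 0.39, and edgeR called none of them under either offset. No snoRNA gene is annotated on the strand of Meg3 or Snhg10 within their spans.

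Protein-coding genes that host a snoRNA were chosen by a narrower rule than the 10 host RNAs. Their snoRNA had to lie outside all exons, whereas 29 of the 32 snoRNA genes in the 10 hosts lie wholly inside an exon. The sets are therefore not matched. Of the 169 tested genes that hold an annotated snoRNA outside their exons, 16 were called higher and 6 lower, with a median log2 fold change of -0.05. The 16 ribosomal protein genes among them supplied 13 of the calls in the higher direction, with a median of 1.40, while the other 153 had a median of -0.19, with 3 called higher and 6 lower by edgeR, where it called 3.69% of all genes higher and 3.72% lower. DESeq2 called 18 of the 153 higher and 28 lower, beside 13.6% and 15.1% of all genes. Those edgeR called higher were Eef1b2, a translation elongation factor subunit (1.39), Nop53, a ribosome assembly factor (1.07), and Gm45713. Gm45713 overlaps Rpl13a and had nearly its counts (43529 and 56175 against 44055 and 57220 in the INK128 libraries). Those edgeR called lower were Rnf180 (-2.18, tested through its Control libraries, with an INK128 mean of 6.47 CPM), Cnot1 (-1.03), the scaffold of the CCR4-NOT deadenylase, Mgat5, Mia2, Rock2 and Sash1. The 6 other long noncoding RNAs tested for comparison had a median of 0.13, from -1.25 (H19) to 1.16 (Gm26917). EdgeR called none of them, and DESeq2 called H19 lower (DESeq2 adjusted p = 0.0297).

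Lists of genes that act on snoRNAs or on host RNAs were read beside the hosts, against the shares of all genes tested. These were 3.69% called higher by edgeR, 13.6% called higher and 15.1% called lower by DESeq2, 34.5% with both INK128 libraries above both Control libraries and 34.0% with both below. Of 19 tested proteins of box C/D and H/ACA particles and their assembly factors, 1 was called higher and 0 lower by edgeR, with a median log2 fold change of 0.48 and both INK128 libraries above both Control libraries for 14. DESeq2 called 7 of the 19 higher and 0 lower. Nhp2, a core H/ACA protein, was the one called, at 150 and 157 CPM against 63 and 68.6 CPM (log2 fold change 1.22, edgeR adjusted p = 0.0455), and Nop10, its partner in the same particle, had 1.25 (0.0586). The lowest values were -0.42 for the assembly factor Naf1 and -0.16 for Nop14. Of 22 factors of NMD and the exon junction complex edgeR called none, with a median of -0.04, 6 above and 10 below in both INK128 libraries. Their extremes were the exon junction components Magohb (1.37, adjusted p = 0.0502) and Magoh (1.22, 0.0527), and at the other end the NMD kinase Smg1 (-1.31, 0.0503) and the decapping enzyme Dcp2 (-0.92, 0.0837), all by edgeR. DESeq2 called 6 of these 22 higher and 3 lower. Of 15 regulators of TOP RNAs, edgeR called Cnbp, an RNA-binding protein, higher (0.93, edgeR adjusted p = 0.0494) and 0 lower, with a median of 0.13 and values from -0.76 (Larp4) to 1.22 (Eif4ebp3). DESeq2 called 3 of the 15 higher and 1, Larp4, lower (DESeq2 adjusted p = 0.00576). Magohb and Eif4ebp3 had Control means of 7.7 and 6.53 CPM and so were tested through their INK128 libraries.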

How the data were processed

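Per the submitters' processing notes and the study's methods, reads were trimmed (Trimmomatic), mapped to the mm10 build (HISAT2) and assigned to genes of an annotation named RefGene (featureCounts), with versions not given in the sources used here. The authors deposited raw counts per gene symbol, with no normalization and no pooling of replicates. Of 54021 symbols, 53447 matched GENCODE M21, which gave positions, overlaps and lengths, and the table holds symbols of Ensembl type, so the annotation counted may not have been RefGene and lengths may differ from those used in counting. CPM were computed with TMM factors. Host RNAs and lists were chosen with earlier results of these data known.

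Genes with a mean CPM above 10 (11758) were tested with edgeR 4.0.16 in R 4.3.3 (quasi-likelihood test without covariates, legacy = FALSE, where the package's default is the legacy method, run as an alternative). Host RNAs at or below 10 CPM were taken from the same fit over 17631 genes above 1 CPM, with TMM factors recomputed. Calls needed a fold change above 1.5 and a Benjamini-Hochberg adjusted p under 0.05. Rules of the study's DESeq2 analysis gave both thresholds, and DESeq2 1.42.0 and limma 3.58.1 (voom) served as alternatives, with other filters, scalings, length and GC offsets and each library left out. The edgeR script was tested on simulated data. The floor of 3 counts covers counting error only, while SDs hold the spread between libraries. SEs of the edgeR log2 fold changes were derived from the estimate and its F statistic, so they rest partly on the spread shared across genes.

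Named genes were the 10 hosts, other noncoding hosts above 1 CPM, opposite-strand genes starting within 1000 bases and snoRNA genes with over 3 counts in a library (given as counts with examples). Of the other lists they were those called and the 2 highest and 2 lowest. Among the latter, Firre (log2 fold change 0.40), Tug1 (-0.44), Eif4ebp2 (-0.66) and Kif13b (-1.50) are not described above, and edgeR called none of them. Ribosomal protein genes and cell type markers are given as counts and sums, and genes overlapping a host were added after their values were seen. CPM compare shares of the counted RNA, so a change elsewhere in the library moves them.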

Additional observations from a re-analysis of the deposited data

How the results depend on the processing

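No paired analysis was possible because the groups share only replicate number 1. Snhg15 and Snhg20 were taken from the edgeR fit that called 0 of all genes. Of the 10 host RNAs, 4 were called by edgeR, all among the 8 above 10 CPM, where it called 3.69% of all genes higher. The number was 10 with DESeq2 and with an adjusted p threshold of 0.1, and 0 with limma voom, with tests over all genes above 1 CPM or with at least 1 count, with the exon length offset and with the transcript length offset (added after seeing the data). Leaving out 1 library gave 0 to 10: it was 0 without either INK128 library and 10 without either Control library, and the lone library was then assumed to vary like the other group. The legacy edgeR method called 3, in a fit that called 749 of 11758 genes in either direction. With CPM above 10 in at least 2 libraries edgeR called 5, for which no share over all genes is given. The median log2 fold change of 1.69 was 1.17 with the exon length offset, 1.31 with the transcript length offset and 1.35 to 1.82 with 1 library left out (1.35 without INK128 replicate 2). Over 20 alternatives all 200 values of single host RNAs were positive, from 0.43 to 2.98, with 29 losing and 25 gaining a call and 0 changing direction. Scaling by library totals shifted the median of all genes to -0.15. The causes of these changes were not tested. Each group had 2 libraries, and every host RNA exceeded 3 counts in every library. Whether the number of libraries or counting error limited precision more was not tested.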
